A study of Mus musculus with 2 samples.

Results

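The accessible chromatin of mouse haematopoietic stem cells was examined at genes of the retinoic acid response: the receptor genes Rara, Rarb and Rarg, the retinoid X receptor genes Rxra and Rxrb, and Cyp26b1, which encodes an enzyme that degrades retinoic acid. They are 6 of 21853 protein-coding genes and were chosen by name. Each gene was taken with its GENCODE M21 gene body on mm10 and 50 kb on either side, and every peak overlapping these windows was collected from 8 deposited peak lists. The windows held 104 separate accessible regions over all lists, and 28 of the 31532 regions of the series' most stringent list of both libraries.

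The assay was ATAC-seq, which marks open DNA through the insertion of adapters by a transposase. The series has 1 group of 2 libraries, replicates 1 and 2, of primary haematopoietic stem cells. The mice were C57BL/6J adults at an age of 5 to 6 weeks, with no other strain, genotype or treatment to compare with. Both carry the same donor identifier, sex was not collected, and the labels name no sorting markers, so it is unknown whether the replicates were separate animals, and differences between them may be technical. A starting quantity, 50000 cells, is given for replicate 2 alone, and read depth is unknown because the files list peaks, not reads.

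Retinoic acid, made from vitamin A, enters the nucleus and binds a heterodimer of an RAR and an RXR that sits on pairs of short repeats in DNA. Without ligand the pair recruits corepressors, and with ligand it recruits coactivators. Enzymes of the CYP26 family limit the signal by oxidising retinoic acid. In mice, Rarg is known for a role in the self-renewal of haematopoietic stem cells, and Cyp26b1 and Rarb are known for a role in keeping them quiescent. Each RAR gene has more than 1 promoter, and the downstream Rarb promoter carries a textbook retinoic acid response element.

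The sequences below were read from GRCm38.p6, the NCBI assembly of mm10. The first 6 are the 201 bp around the summit of the region of highest signal away from promoters in each window, in the conservative list or, for Rxrb, in the IDR list of both replicates, on the plus strand. They are shown because these are the candidate regulatory stretches with most signal near each gene. Capitals mark the motif letters searched for: AGGAAG for ETS factors. For RUNX factors they are TGTGGT. For GATA factors they are AGATAA. For AP-1 they are TGANTCA. For the E-box they are CAGCTG. Each was searched on both strands, so that a match on the minus strand appears as its reverse complement, and the Cyp26b1 window has none.
Rara window, intron of Cdc6, chr11:98918305-98918505 (ETS): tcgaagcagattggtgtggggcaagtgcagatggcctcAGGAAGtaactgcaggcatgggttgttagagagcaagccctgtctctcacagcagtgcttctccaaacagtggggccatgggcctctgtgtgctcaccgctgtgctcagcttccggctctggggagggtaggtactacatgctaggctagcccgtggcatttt
Rarb intron, chr14:16479023-16479223 (RUNX): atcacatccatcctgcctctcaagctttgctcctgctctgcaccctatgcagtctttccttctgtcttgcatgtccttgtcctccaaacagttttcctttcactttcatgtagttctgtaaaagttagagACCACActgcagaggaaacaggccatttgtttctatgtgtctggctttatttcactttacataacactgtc
Rarg window, intron of Itgb7, chr15:102225250-102225450 (E-box and GATA): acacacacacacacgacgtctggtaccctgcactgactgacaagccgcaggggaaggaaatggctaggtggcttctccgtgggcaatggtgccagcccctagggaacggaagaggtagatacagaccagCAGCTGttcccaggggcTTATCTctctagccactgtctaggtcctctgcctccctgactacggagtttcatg
Rxra intron, chr2:27740362-27740562 (E-box): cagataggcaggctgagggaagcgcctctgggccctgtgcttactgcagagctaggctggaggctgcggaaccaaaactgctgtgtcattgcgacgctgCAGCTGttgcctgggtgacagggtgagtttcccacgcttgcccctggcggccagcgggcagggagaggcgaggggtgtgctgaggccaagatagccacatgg
Rxrb window, intergenic, chr17:34079675-34079875 (ETS and AP-1): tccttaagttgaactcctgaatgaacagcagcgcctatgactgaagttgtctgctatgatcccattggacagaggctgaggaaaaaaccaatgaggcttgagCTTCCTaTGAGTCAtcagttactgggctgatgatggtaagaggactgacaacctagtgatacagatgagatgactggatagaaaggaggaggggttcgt
Cyp26b1 intron, chr6:84590368-84590568 (none): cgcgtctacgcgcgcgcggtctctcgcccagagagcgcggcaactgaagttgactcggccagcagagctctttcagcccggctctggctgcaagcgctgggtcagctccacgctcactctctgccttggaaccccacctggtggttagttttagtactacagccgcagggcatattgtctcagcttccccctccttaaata

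Direct repeats of the receptor recognition unit with spacers of 1, 2 and 5 bases were searched for in the 104 regions, and the other 2 sequences are the matches. Other spacers were not searched. The unit is AGGTCA, in which G is also allowed at the first base and T at the third. Capitals mark the 2 units. The first, on the minus strand, has a spacer of 5 bases (DR5) and lies in the downstream Rarb promoter region, just inside the annotated Rarb-201 transcript. The second, on the plus strand, has a spacer of 1 base (DR1) and lies in the promoter region of H2-Ke6, a neighbour of Rxrb.
Rarb downstream promoter, chr14:16575507-16575535: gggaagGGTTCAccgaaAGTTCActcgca
H2-Ke6 promoter in the Rxrb window, chr17:34027872-34027900: aagggaggAGGTCAgAGGTCAcggggcgc

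The peak lists differ in how strictly they were made. The conservative list and the IDR list of both replicates hold peaks that passed a threshold on the irreproducible discovery rate (IDR). The replicated list and the pooled pseudoreplicated list of both replicates are more permissive, and each replicate has an IDR list and a pseudoreplicated list of its own. Within a list, peaks that overlapped were joined into regions, each with the summit and signal of its strongest peak. The signal is the authors' own value with no stated scaling, so values describe peaks within a list. A region belongs to a promoter when its summit lies within 1 kb of a start site (TSS) of a protein-coding transcript, and is distal otherwise. A gene has a promoter peak when a region overlaps the 1 kb either side of any of its start sites.

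The cell label was set against marker genes. In the conservative list a promoter peak was present at 11 of 17 stem and progenitor genes, beside 52.3% of all protein-coding genes. The counts were 0 of 8 granulocyte genes, 2 of 6 erythroid genes and 2 of 5 B cell genes. They were 1 of 5 T cell genes and 2 of 6 stroma and endothelium genes. In the pooled pseudoreplicated list all 17 stem and progenitor genes had one, beside 67.0% of all genes. So did 7 of 8 granulocyte genes, 3 of 6 erythroid genes and 2 of 5 B cell genes. The same list had 2 of 5 T cell genes and 5 of 6 stroma and endothelium genes. The IDR list of both replicates had a promoter peak at 5 of 8 granulocyte genes, beside 57.0% of all genes. Ly6a had none in either replicate's own lists. The libraries differed: promoters of 6 of 8 granulocyte genes were listed for replicate 1 in its pseudoreplicated list (summed signal 33.6, none at Elane or Mpo). For replicate 2 they were 2 of 8 (summed signal 7.5). Of all genes, 64.2% and 62.5% had a promoter peak in these lists, with median signals of 9.9 and 6.99.

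Promoters of the receptor genes were accessible but weak, and no list showed a peak at any Cyp26b1 start site. In the conservative list 4 of the 6 genes had a promoter peak (Rara, Rarb, Rarg and Rxrb), beside 52.3% of all protein-coding genes. The counts were 4 of 6 in the IDR list of both replicates (57.0% of all genes), 5 of 6 in the replicated list (65.8%) and 5 of 6 in the pooled pseudoreplicated list (67.0%), the last 2 with Rxra added. Replicate 1 showed 3 of 6 in its IDR list (52.7% of all genes) and 5 of 6 in its pseudoreplicated list (64.2%). Replicate 2 showed 2 of 6 in its IDR list (46.2%) and 5 of 6 in its pseudoreplicated list (62.5%). The share of the 6 genes was above that of all genes in the lists of both replicates and below it in each replicate's IDR list. The 4 conservative signals had a median of 5.8, beside 9.78 over the 11432 genes with a peak. No conservative promoter signal of the 6 genes reached that median. In a bulk library, a site open in fewer cells and a site less open in each cell cannot be told apart.

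**Figure D1:**
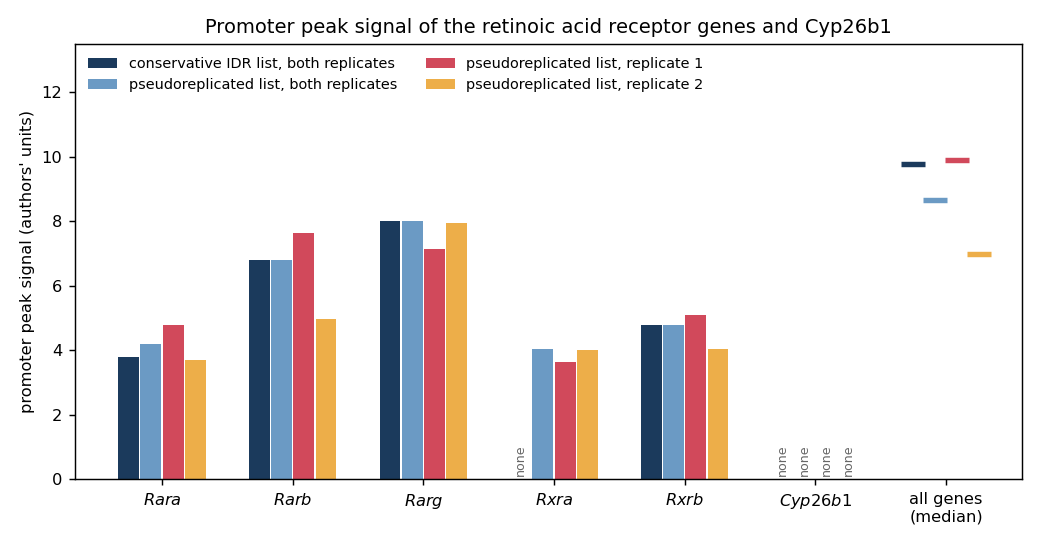
Highest promoter peak signal (authors' units, vertical axis) of the 6 genes in 4 peak lists, with the median over all genes that have a promoter peak in the same list as dashes at the right, and "none" where a list has no promoter peak. The Rara bars come from different start sites in different lists. Each dash lies above every bar of its own colour except for Rarg in replicate 2, and Cyp26b1 has no bar.

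Rara (chr11:98927818-98974942, plus strand), the receptor best known in myeloid differentiation, had the weakest of the 4 conservative promoter signals. At the start shared by Rara-204 and Rara-201, near chr11:98937698, the signal was 3.78 in the conservative list, 4.18 in replicate 1 and 3.23 in replicate 2, where it was in the pseudoreplicated list alone. The conservative value stood at percentile 0.171 of genes with a promoter peak. A second start, of Rara-202, had a region with its summit 768 bp upstream, which missed the conservative list. It had 4.21 in the pooled list, 4.77 in replicate 1 and 3.07 in replicate 2. Another region, with its summit 264 bp downstream of that start, was in the pseudoreplicated list of replicate 1 alone (3.18). The upstream-most start, of Rara-203, was marked in replicate 2 alone, in its pseudoreplicated list (3.69), and that of Rara-207 in the replicated list alone (2.16). In the conservative list the internal start of Rara-204 and Rara-201 was thus the only one of the gene with a peak.

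Rarb (chr14:16430839-16819156, minus strand), the receptor gene that retinoic acid itself induces in many cells, was open at its downstream promoter and had no peak at its upstream one. The downstream region, chr14:16575195-16575832, covers the starts of Rarb-201 and Rarb-207. Its signal was 6.8 in the conservative list (percentile 14.9), 7.65 in replicate 1 and 4.98 in replicate 2, where both values come from the pseudoreplicated lists. It is 1 of 2 of the 28 conservative regions that neither replicate's IDR list held, beside 11.0% of all conservative regions. The starts of Rarb-203 and Rarb-204, about 244 kb upstream of that region, had no peak in any of the 8 lists. The DR5 printed above lies 115 bp from the summit of the open promoter, and 0.0974% of 32851 RefSeq promoters of 300 bp (mm10, chromosome 18 left out) hold a DR5. Of 12 such promoters of the 6 genes, this was the only match, and the letters do not show whether a receptor was bound.

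Rarg (chr15:102234938-102257517, minus strand) had the highest promoter signal of the 6 genes in the conservative list, at an internal start. The region at Rarg-204, with its summit 29 bp upstream of chr15:102243589, was in all 8 lists, at 8.0 in the conservative list (percentile 28.7), 7.14 in replicate 1 and 7.95 in replicate 2. The replicate 2 value was above the median of that replicate's pseudoreplicated promoters (6.99) and just below that of its IDR list (7.99), and the replicate 1 value was below both of its own (9.90 and 10.8). At Rarg-202 a region with its summit 531 bp upstream had 4.22 in the conservative list, 4.72 in replicate 1 and 3.61 in replicate 2. A weaker region, with its summit 40 bp upstream of that start, missed the conservative list and both lists of replicate 2. It had 3.36 in the other lists of both replicates and 3.89 in the pseudoreplicated list of replicate 1. The upstream-most starts, of Rarg-201 and Rarg-205, had 3.53 in the pooled and replicated lists, 4.49 in replicate 1 and 3.6 in replicate 2, and were in no IDR list. Rarg-206 had no peak in any list.

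The RXR genes, whose products pair with RARs and with several other nuclear receptors, had low promoter signals. Rxra (chr2:27676440-27762957, plus strand) had a region of 4.06 in the pooled and replicated lists, 3.63 in replicate 1 and 4.01 in replicate 2, and it was in no IDR list. Its summit lay 142 bp upstream of the start of Rxra-204 and at -903 bp from that of Rxra-201, and the downstream starts of Rxra-202 and Rxra-203 had no peak in any list. The RefSeq promoter of Rxra at chr2:27676951-27677250 has 83% G and C and a ratio of observed to expected CpG of 1.08, against medians of 52.7% and 0.384 over the same RefSeq promoters. No region of any list overlapped that stretch. The Rxrb promoter at chr17:34031562-34031861, which a region of all 8 lists overlaps, has 68.7% and 1.05.

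Rxrb (chr17:34031812-34038399, plus strand) had 4.79 in the conservative list (percentile 1.38), 5.10 in replicate 1 and 4.05 in replicate 2, in all 8 lists. All 4 of its annotated starts lie in reach of this 1 region, chr17:34031489-34031897, which also covers the promoter of Slc39a7, a zinc transporter gene. The signal of the 2 genes cannot be told apart. The order of conservative signals was Rarg, Rarb, Rxrb, Rara. In replicate 1 it was Rarb, Rarg, Rxrb, Rara, Rxra in the pseudoreplicated list, and in that of replicate 2 it was Rarg, Rarb, Rxrb, Rxra, Rara, so that the places of Rarb and Rarg, and of Rara and Rxra, changed between libraries.

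Cyp26b1 (chr6:84571414-84593908, minus strand) had no promoter peak at any of its 5 annotated starts in any of the 8 lists. Its RefSeq promoter had 62.3% G and C and a CpG ratio of 0.314. The upstream Rarg promoter, which a region of the pooled list overlaps, had 70.0% and 0.335. The nearest accessible region was intronic, chr6:84590190-84590615, with its summit 1830 bp upstream of the internal start of Cyp26b1-204 and 3.44 kb inside the gene. Its signal was 8.03 in the conservative list, 10.9 in replicate 1 and 5.12 in replicate 2, a log2 difference of 1.10, where the median over all regions shared by the libraries was 0.464. It was in 7 lists and missed the IDR list of replicate 2. With promoters widened to 2500 bp either side it counts as a promoter region, and 5 of the 6 genes then have a conservative promoter peak.

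Away from promoters, the 6 windows held 16 distal regions in the conservative list, 13 of them inside the gene bodies. Their signals ran between 4.97 and 9.96 with a median of 7.46, beside 7.96 over all 20306 distal regions, and 6 of 16 were above that value. At least 1 distal region was present for 5 of the 6 genes, beside 67.9% of all protein-coding genes. Rarb had 8, Rara 3, Rarg 2, Cyp26b1 2, Rxra 1 and Rxrb 0. In the pooled pseudoreplicated list the windows held 73, with 18 for Rarb, 15 for Rara, 14 for Rxra, 10 for Cyp26b1, 9 for Rxrb and 7 for Rarg.

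**Figure D2:**
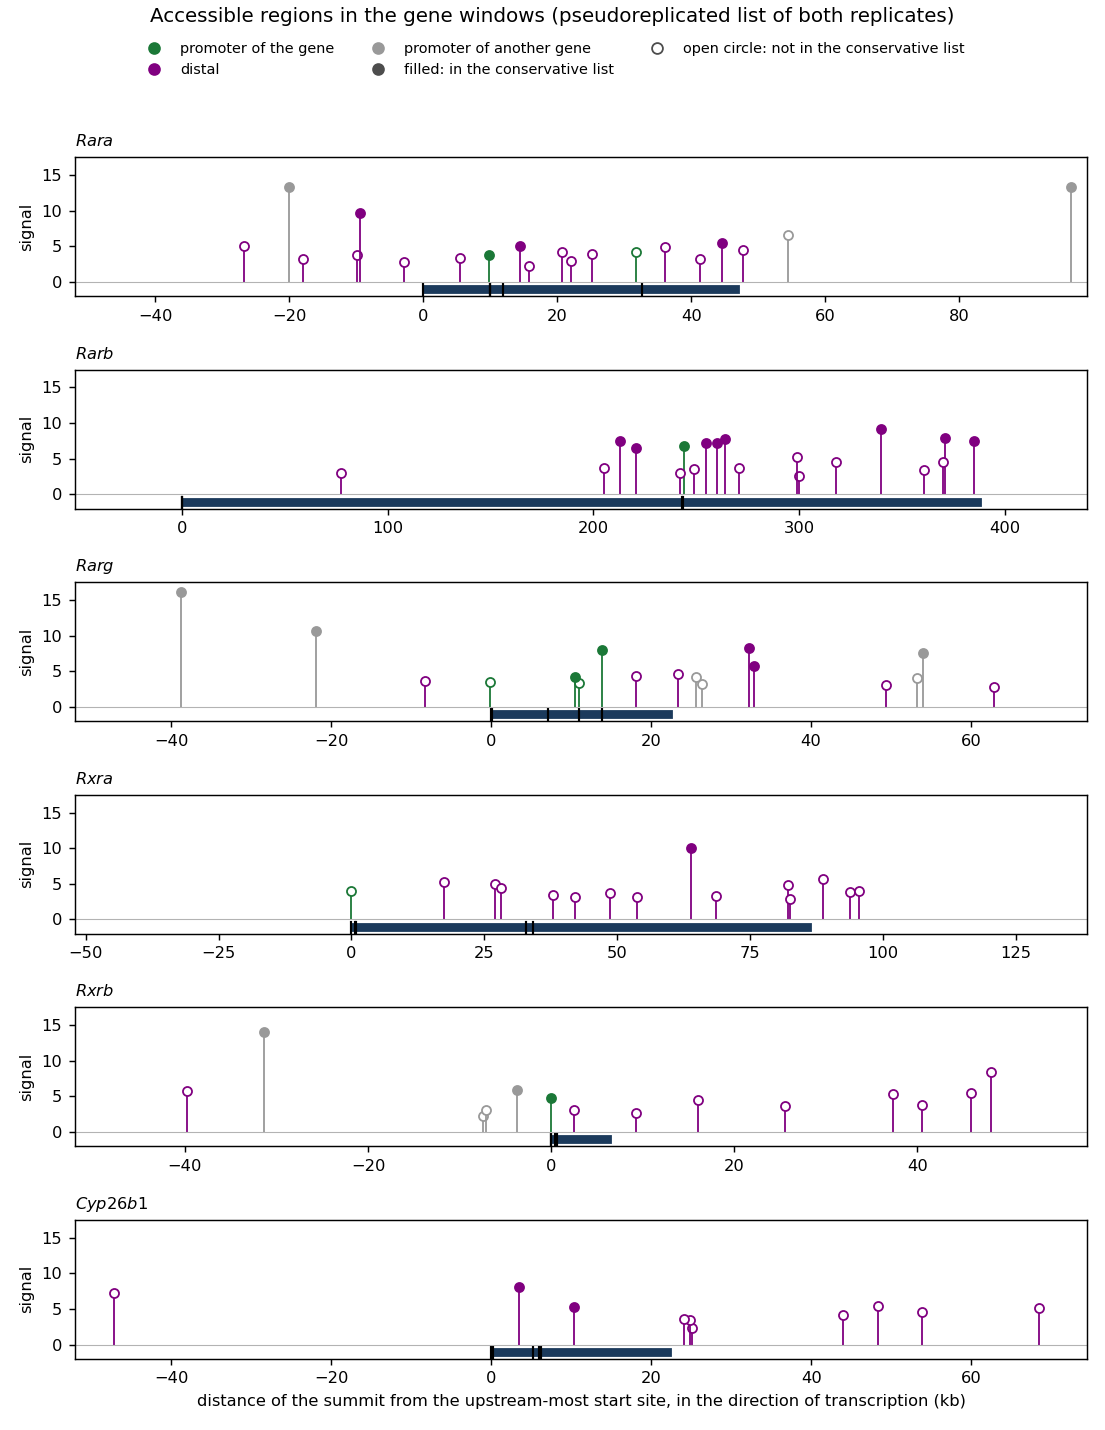
Signal (authors' units, vertical axis) of each region of the pooled pseudoreplicated list against the distance of its summit from the gene's upstream-most start in kb, with the gene body as a bar and protein-coding starts as ticks. Rarb regions gather around and beyond the downstream start, with 1 region in the first 200 kb of the gene, and no circle of the gene's own promoter colour appears for Cyp26b1.

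The windows differ in length, and density per 100 kb gave another order. In the conservative list it was 2.04 for Rara, 1.64 for Rarb, 1.63 each for Rarg and Cyp26b1, 0.536 for Rxra and 0 for Rxrb, beside a median of 0.928 over all genes. Rarb, which stood at percentile 98.8 by number, stood at 64.5 by density, since its window of 488318 bp is the longest of the 6. In the pooled list the densities were 10.2 for Rara (percentile 94.5), 8.44 for Rxrb (88.6), 8.16 for Cyp26b1 (87.4), 7.51 for Rxra (83.6), 5.71 for Rarg (70.0) and 3.69 for Rarb (48.8), beside a median of 3.77. In the pseudoreplicated lists of single replicates Rara did not lead: replicate 1 gave 6.57 for Rxrb, 6.53 for Cyp26b1 and 6.12 for Rara, and replicate 2 gave 6.53 for Cyp26b1 and 5.44 for Rara. The order of the genes thus depended on the list.

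**Figure D3:**
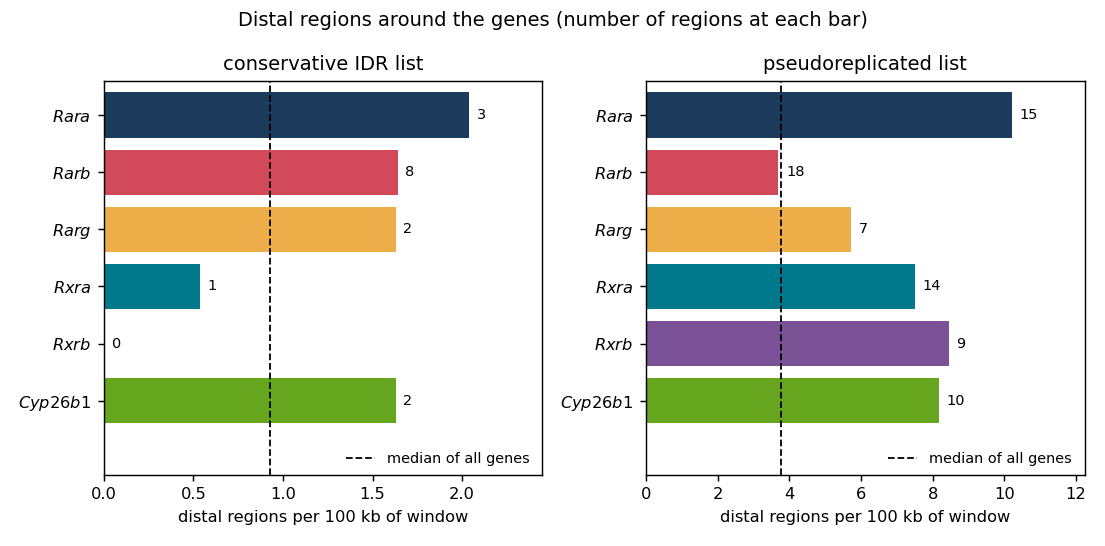
Distal regions per 100 kb of window (horizontal axis) for the 6 genes in the conservative list and in the pooled pseudoreplicated list, with the number of regions at the end of each bar and the median over all genes as a dashed line. Rxra and Rxrb lie below the line in the conservative list and above it in the other, and Rarb lies just below it in the other.

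The 8 conservative distal regions of Rarb all lay inside the gene, between 213 and 385 kb from its upstream start, and none in the first 200 kb. The highest signal in that list was at an intronic region 340 kb from that start, at 9.17 in the conservative list, 10.5 in replicate 1 and 6.70 in replicate 2. A group of 3 intronic regions lay downstream of the open promoter at 255, 260 and 264 kb, with conservative signals of 7.21, 7.24 and 7.75. Of these, the region at 255 kb had 6.97 in replicate 1 and 6.92 in replicate 2. That at 264 kb had 6.99 and 7.40. Among distal regions of the pseudoreplicated lists, these 2 stood at percentiles 61.7 and 61.9 in replicate 1. In replicate 2 they ranked higher, at 84.3 and 87.8. Another 2 lay upstream of the open promoter at 213 and 221 kb, at 7.49 and 6.44.

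The remaining Rarb regions lay at the end of the gene, at 371 kb (7.96) and at 385 kb (7.43), the last of which is also in an untranslated region of Top2b, the topoisomerase gene that overlaps the end of Rarb. The regions at 213, 221, 371 and 385 kb passed IDR in replicate 1, while replicate 2 had them in its pseudoreplicated list alone, where they had 5.29, 4.91, 5.54 and 5.06, beside 9.03, 7.30, 9.45 and 9.03 in replicate 1. The region at 221 kb was in the conservative list and not in the IDR list of both replicates, as were 3.64% of all conservative regions.

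The Rara window held its strongest distal region, 9.6 in the conservative list, at -9.41 kb from the first start, in an intron of Cdc6, with 10.1 in replicate 1 and 7.92 in replicate 2. Inside Rara, regions of 4.97 at 14.4 kb and 5.46 at 44.6 kb were in the conservative list. The region at 14.4 kb was in all 8 lists, with 6.12 in replicate 1 and 4.18 in replicate 2, and that at 44.6 kb was in neither replicate's IDR list. In the Rarg window both conservative distal regions, at 5.75 and 8.26, lay in Itgb7, an integrin gene, 32.9 and 32.2 kb from the upstream start of Rarg. The stronger had 7.57 in replicate 1 and 7.62 in replicate 2. No conservative distal region lay inside Rarg.

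Rxra had the highest distal signal of the 6 windows in the conservative list, in an intron 64.0 kb from its first start. It had 9.96 in the conservative list, 10.97 in replicate 1 and 7.90 in replicate 2, in all 8 lists. Rxrb had no conservative distal region, and its strongest in any list of both replicates was an intergenic region 48.0 kb downstream of its first start (8.43 in the IDR list, 7.10 in replicate 1 and 7.94 in replicate 2). Cyp26b1 had, beside the intronic region described above, a second in an intron 10.4 kb inside the gene, at 5.24 in the conservative list, 6.26 in replicate 1 and 4.73 in replicate 2, in all 8 lists. A region at -47.1 kb, in an intron of Exoc6b, had 7.22 in the IDR list of both replicates, 5.59 in replicate 1 and 6.24 in replicate 2. Downstream of Cyp26b1, between 24.1 and 68.4 kb from its first start, 7 intergenic regions of the pooled list had signals from 2.28 to 5.45.

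The other 7 conservative regions of the windows were promoters of neighbouring genes and most were stronger. Their signals ran between 5.84 and 16.1 with a median of 13.3, while the 5 regions at promoters of the receptor genes ran between 3.78 and 8.0. Around Rara they were the promoters of Cdc6 (13.3), a licensing factor of DNA replication, and Top2a (13.3), a topoisomerase of dividing cells. Around Rarg they were those of Espl1 (16.1), which encodes separase, Mfsd5 (10.7), and Csad with Zfp740 (7.53). Around Rxrb they were those of H2-K1 (13.98), a class I histocompatibility gene, and H2-Ke6 (5.84). In other lists, regions lay at the promoters of Gjd3 (6.56 in the IDR list of both replicates), Itgb7 and Ring1.

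The letters of receptor repeats were not found near distal summits. Within 100 bp of the summit, 0 of 16 conservative distal regions of the windows held a DR5, a DR2 (spacer of 2 bases) or a DR1. Over all 20305 distal windows of the list, 0.0542% held a DR5, 0.0788% a DR2, 0.064% a DR1 and 0.197% any of these, so that 0 of 16 cannot be told apart from these shares. The pooled list gave 0 of 73 beside 0.266%. These letters not being in a window says nothing about receptor binding there.

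Motifs of haematopoietic factors were present in the distal windows. ETS letters were in 5 of 16 windows, beside 50.3% of all distal windows, and in 36 of 73 in the pooled list, beside 48.2%. RUNX letters were in 5 of 16, beside 30.4%, and E-box letters in 5 of 16, beside 18.0%. GATA letters were in 2 of 16, beside 8.71%, and AP-1 letters in 0 of 16, beside 10.0%. In the 73 windows of the pooled list RUNX was in 26.0%, E-box in 17.8%, GATA in 8.22% and AP-1 in 6.85%, beside 27.8%, 16.4%, 10.1% and 9.66% of all distal windows. With 73 windows the shares lay closer to those of all distal windows than with 16 for each motif but RUNX.

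**Figure D4:**
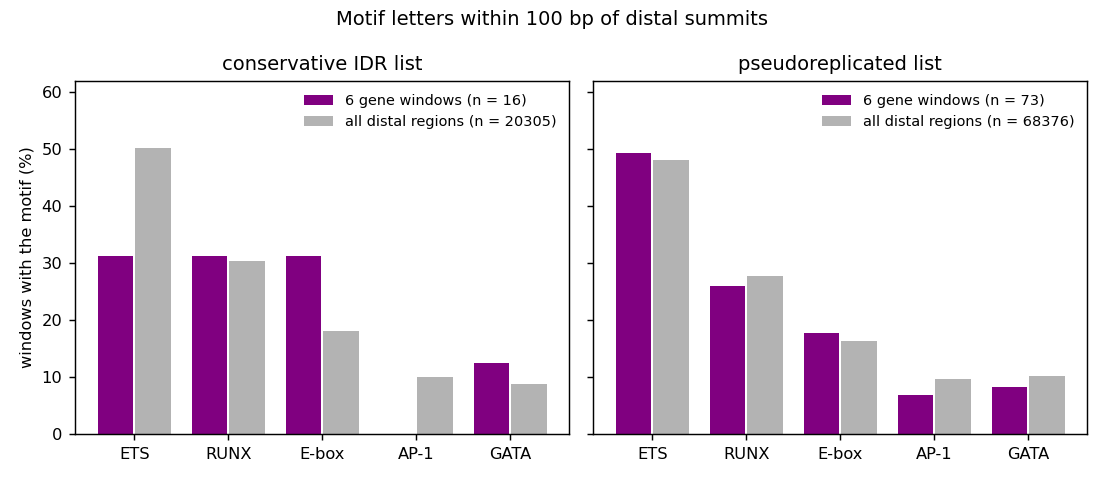
Share of distal windows of 201 bp that hold each motif (vertical axis, percent), for the 6 gene windows (purple) and for all distal regions (grey), in the conservative list and in the pooled pseudoreplicated list. The ETS bars are 31.2% and 50.3% with 16 windows and 49.3% and 48.2% with 73.

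Of the 104 regions, 54 were in a list of each replicate, 21 in lists of replicate 1 alone, 11 in lists of replicate 2 alone and 18 in lists of both replicates together and in neither replicate's own. A total of 19 were in all 8 lists: 6 in the Rarg window, 4 each in those of Rara and Rarb, 3 in that of Rxrb and 1 each in those of Rxra and Cyp26b1. In the IDR lists, 20 of the 31 regions of replicate 1 overlapped one of replicate 2 (64.5%, beside 56.5% of all regions of replicate 1), and 19 of the 26 regions of replicate 2 overlapped one of replicate 1 (73.1%, beside 87.5%). All 7 regions in the IDR list of replicate 2 alone were in the pseudoreplicated list of replicate 1.

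Signals were mostly higher in replicate 1. Of the 54 regions in a list of each, 46 had the higher signal in replicate 1, with a median log2 ratio of replicate 1 to replicate 2 of 0.37, beside 0.46 over all 48575 shared regions, of which 87.9% were higher in replicate 1. The Rarg-204 and Rxra promoters were among the 8 that went the other way. As a description over these 54 regions, which share their libraries, Spearman's coefficient was 0.762 and Pearson's r of log2 signals was 0.792.

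**Figure D5:**
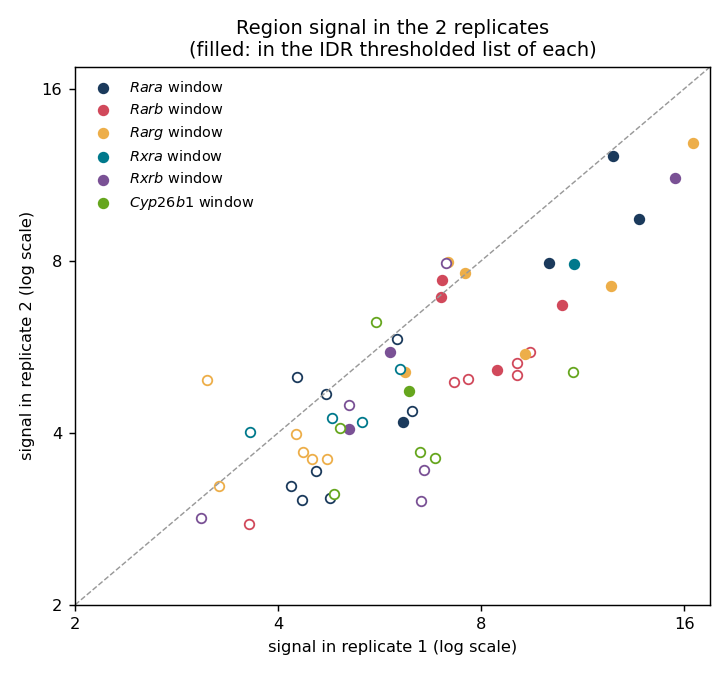
Signal of the 54 regions present in a list of each replicate, replicate 1 on the horizontal and replicate 2 on the vertical axis (log scales, authors' units), coloured by gene window and filled where both IDR lists hold the region. Most points lie below the dashed line of equal signal, among them the Cyp26b1 region at 10.9 and 5.12.

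Some regions were listed in replicate 1 and in no list of replicate 2, of which 2 had high signals for that library. Beyond the end of Rxra, 3 intergenic regions at 88.7, 93.9 and 95.6 kb had 9.82, 6.19 and 6.45 in replicate 1. In the Rxrb window an intergenic region at 45.9 kb had 9.73 and a coding exon of Col11a2 had 6.73. Introns of Rxra at 37.9 kb and of Rarb at 299 kb had 7.0 and 6.91. The regions of 9.82 and 9.73 stood at percentiles 85.5 and 85.1 of the distal regions in the pseudoreplicated list of replicate 1. The other regions named stood between 50.7 and 62. Those named here are the strongest of the 21 regions in lists of replicate 1 alone, and the rest had at most 5.92. The strongest region seen in replicate 2 alone was an intronic one of Rarb, 318 kb from the upstream start, at 4.52. Summed promoter signals of the marker lists also differed between the pseudoreplicated lists of the libraries. They were 33.6 in replicate 1 and 7.5 in replicate 2 for granulocyte genes, 29.7 and 11.6 for erythroid genes, and 30.9 and 18.2 for stroma and endothelium genes. They were 110.0 and 83.0 for stem and progenitor genes, 19.3 and 12.0 for B cell genes, and 19.0 and 10.8 for T cell genes. The 2 lists hold 104615 and 75772 peaks, with median promoter signals over all genes with a peak of 9.9 and 6.99. The sums were not adjusted for this. The part of the marker differences in the regions above was not tested.

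The rest of the retinoid system was read from lists of genes with known roles, in the conservative list. Of 10 coactivators and corepressors, all 10 had a promoter peak, the highest at Med1, a Mediator subunit (13.1), Ncoa3 (11.4) and Ncoa2 (10.9), both p160 coactivators, with a list median of 8.77. Of 12 other receptors and RXR partners, 8 had one, the highest at Nr1h3, an oxysterol receptor (11.1), Ppard, a fatty acid receptor (9.87), and Rxrg, the remaining RXR gene (7.93), and none of the 8 lists had one at Nr1h4 or Nr1i3. Of 15 genes of retinoid synthesis, storage and transport, 6 had one. The highest were Dhrs9, a retinol dehydrogenase (11.2), Lrat, which stores retinol as esters (10.3), and Aldh1a1, which makes retinoic acid (9.6). Bco1 and Crabp1 were among those with no promoter peak in any list.

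The other CYP26 genes resembled Cyp26b1 in having no conservative promoter peak, 0 of 2. Cyp26a1 had 3.85 in the pooled and replicated lists alone, and Cyp26c1 had none in any list. For these lists a promoter shared with a neighbouring gene was not set apart. Set against 52.3% of all genes, the lists ran between 0 of 2 and 10 of 10, and the receptor genes with Cyp26b1 stood at 4 of 6 with the lower median signal of 5.8.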

How the data were processed

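The deposited files list peaks on mm10 (per the labels). The sources used here name no aligner, peak caller or insertion offset. Peak signal is the value the authors deposited, with its scaling unstated, and the ranked lists were not used. The conservative IDR list was the main list, with 53241 peaks. Overlapping peaks were merged, and genes came from GENCODE M21 on 21 chromosomes with at least 1 protein-coding transcript. Sequences came from GRCm38.p6 and RefSeq promoters. Regions were found in Python 3.11.15 with pandas 2.3.3 and numpy 2.4.6, and the steps were tested on simulated data. With 1 group of 2 libraries no test between conditions was possible, and none was run. Named genes were the 6 members, neighbours whose promoters lie in the windows, and per retinoid list the 3 highest and up to 3 without a peak in any list, and some genes named by this rule are not reported here. The members, lists and motifs were chosen with earlier results of these data known. Alternatives were other peak lists, each replicate alone, peaks above the median, and other windows.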

Additional observations from a re-analysis of the deposited data

How the results depend on the processing

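The number of the 6 genes with a promoter peak was 4, ran between 2 and 3 with 1 replicate's IDR list left (2 without replicate 1), and was 0 with peaks above the median signal and 1 with the upstream-most start alone. The 16 distal regions became 29 in the IDR list of both replicates, 59 in the replicated list, 73 in the pooled pseudoreplicated list, 53 and 44 in the pseudoreplicated lists of replicates 1 and 2, 3 with peaks above the median signal and 26 with 100 kb either side. They ran between 15 and 19 with 1 replicate left out. Regions found in both replicates, 20 of replicate 1 and 19 of replicate 2, became 55 and 55 with pseudoreplicated lists. The count of direct repeats with spacers of 1, 2 or 5 bases near distal summits was 0 in every alternative run. Of the counts per gene, 39 of 60 alternatives moved the value by over 1.5 times, and of those per motif 35 of 80. The motif tally includes the direct repeats, which stayed at 0. It compares counts between lists of different size, so it does not show whether the motif shares hold. The counts thus depend on how permissive the list is, and peaks missing from a list may be below its threshold, since read depth is unknown. No paired analysis was possible because the series has 1 group.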
